A study of Mus musculus with 6 samples.

Results

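D cyclins, the kinases CDK4 and CDK6 and the CDK inhibitors were examined in mouse leukemias made with the oncoprotein MLL-ENL, in which the N-terminal part of MLL is joined to the transcription elongation factor ENL. The 10 genes Ccnd1, Ccnd2, Ccnd3, Cdk4, Cdk6, Cdkn1a, Cdkn1b, Cdkn2a, Cdkn2c and Cdkn2d were chosen by name, and all probe sets annotated to exactly 1 of these symbols were taken. This gave 26 of the 45037 probe sets on the array that are not controls. The 3 arrays with the label Runx1-KO held leukemias grown from Runx1-excised bone marrow, and the 3 labelled Control held leukemias from marrow with intact Runx1. All 6 were of the C57BL/6 strain, carried MLL-ENL by transduction, were grown in congenic recipients and were collected when the mice were moribund. How Runx1 was excised, and the age and sex of the donors, are not given in the sources used here. The leukemic cells were described as independent within each genotype, so each array was taken as 1 leukemia.

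D-type cyclins rise when growth factors reach a cell, and they activate CDK4 or CDK6, which phosphorylate the retinoblastoma protein and so release E2F factors that switch on genes of DNA replication. INK4 inhibitors (the products of Cdkn2a, Cdkn2c and Cdkn2d) bind the kinases themselves, while CIP/KIP inhibitors (Cdkn1a and Cdkn1b) bind cyclin and kinase complexes and chiefly restrain CDK2. CDK6 is known as a kinase on which leukemias with MLL fusions depend, and in myeloid maturation proliferation gives way to arrest as inhibitors accumulate.

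Values are linear probe set intensities, which order the arrays within a probe set but do not compare 1 gene with another. A probe set counted as above background on an array when it exceeded the highest of 27 bacterial control probe sets without target, which stood at 14.1 to 22.5 on the 6 arrays. Median intensities were 24.4 to 25.99. Runx1, which should check the labels, was not lower in Runx1-KO-labelled arrays: all 6 of its probe sets were higher there, by 1.70-fold to 3.18-fold, at limma adjusted p of 0.228 to 0.487. Where the probe sets lie in relation to the excised part is not known here, so Runx1 did not settle the labels. The Y-linked gene Eif2s3y was below background in every Runx1-KO-labelled array and above it in every Control array on both of its probe sets. The sex of the leukemia cells and the genotype label therefore cannot be told apart in any comparison below. The 3 probe sets of the X-linked gene Xist read 618 to 1895 in Runx1-KO-labelled arrays. They read 97.7, 111 and 331 in Control 1, 35.2, 15.5 and 85.4 in Control 2, and 3.89, 8.51 and 25.3 in Control 3. The source of the Xist signal in Control arrays was not tested. A pair of arrays had features of their own. The 3′ over 5′ Gapdh probe set ratio, which climbs as RNA degrades, was 7.10 in Runx1-KO 1 and 2.67 to 3.02 elsewhere, whereas the same ratio for Actb was 1.11 in Runx1-KO 1 and 1.03 to 1.10 elsewhere. The summed intensity of 10 erythroid genes was 9436 in Control 1 and 837 to 1279.9 elsewhere.

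No probe set of the 10 genes passed a Benjamini-Hochberg adjusted p of 0.05 in limma, 0 of 26 against a background of 0.0688% of all probe sets. At an unadjusted limma p under 0.05 there was 1 of 26, where 11.3% of all probe sets lay. The fitted difference was below 0 in 22 of the 26 probe sets and above 0 in 4, where 49.8% of all probe sets lay below 0, with a median log2 difference (Runx1-KO-labelled arrays minus Control) of -0.34, against 0.0014 over all probe sets. The median over the 10 genes, each by its brightest probe set, was -0.35, and -0.14 without Runx1-KO 1. The groups did not overlap in 3 probe sets, all lower in Runx1-KO-labelled arrays. That was 11.5% of the 26, near the background of 10.6% of all probe sets, and 0 were higher without overlap (8.62% of all). Of the 26, 20 were above background on every array, 4 on some and 2 on none. With 3 arrays against 3, an exact permutation test of a single value cannot give a two-sided p below 0.1.

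Ccnd1, which encodes cyclin D1, had the largest difference among the 10 genes. On its brightest probe set (1448698_at) the intensity was 65.4, 88.5 and 64.8 in Runx1-KO 1, 2 and 3, and 453, 93.4 and 397 in Control 1, 2 and 3. The Runx1-KO-labelled arrays lay close together, whereas Control 1 and Control 3 stood far above Control 2, which nearly met the other group. The log2 difference was -1.83 ± 0.61 (SE, n = 3 per group; 95% interval -3.31 to -0.35), a 3.56-fold lower geometric mean in Runx1-KO-labelled arrays, with a limma adjusted p of 0.367 and an exact two-sided permutation p of 0.1. The log2 difference was -2.56 without Control 2 (adjusted p = 0.15), -1.42 without Control 1 (0.590) and -1.51 without Control 3 (0.627). Averaged over all Ccnd1 probe sets it was -0.99 (adjusted p = 0.504).

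Another Ccnd1 probe set, 1417420_at, repeated that order of the Control arrays. It read 30.8, 38.1 and 35.8 in Runx1-KO-labelled arrays and 215, 21.4 and 214 in Control 1, 2 and 3. Here Control 2 was the lowest of all 6 arrays, so the groups overlapped (log2 difference -1.52 ± 0.89, adjusted p = 0.566, or -2.63 and 0.125 without Control 2, and -0.96 and 0.791 without Control 1). The third, 1417419_at, did not follow. It read 39.5, 54.9 and 62.2 in Runx1-KO-labelled arrays and 41.5, 35.1 and 42.9 in Control, a log2 difference of 0.37 ± 0.25 (adjusted p = 0.617). The within-array log2 ratio of 1448698_at to 1417419_at was 0.49 ± 0.38 in Runx1-KO-labelled arrays and 2.69 ± 1.11 in Control (SD, n = 3 each; exact permutation p = 0.1). The probe sets of Ccnd1 thus disagreed on direction, and the part of the transcript that each one reads is not known here.

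Ccnd2 encodes cyclin D2, a close relative of cyclin D1. Its brightest probe set (1416124_at) read 163, 289.6 and 167 in Runx1-KO-labelled arrays and 475, 121 and 529 in Control 1, 2 and 3. Control 1 and Control 3 were again the highest arrays and Control 2 was the lowest, and the log2 difference was -0.65 ± 0.61 (adjusted p = 0.725), or -1.33 without Control 2 and -0.27 without Control 3. On 1448229_s_at the values were 20.5, 30.9 and 23.4 in Runx1-KO-labelled arrays and 75.3, 25.2 and 103 in Control (-1.24 ± 0.54, adjusted p = 0.455). Control 2 lay between the values of the other group on that probe set.

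The other 5 Ccnd2 probe sets were all dimmer than 1416124_at. On 1416123_at Runx1-KO-labelled arrays read 10.6, 30.0 and 16.8, of which 1 was above background, and Control read 74.6, 13.0 and 97.5, of which 2 were. The values of 1434745_at were 15.0, 32.2 and 17.9 in Runx1-KO-labelled arrays and 60.1, 17.0 and 66.0 in Control. Those of 1430127_a_at were 35.2, 39.8 and 33.2 against 55.0, 31.7 and 52.9, in the same order of groups. In all 7 Ccnd2 probe sets Control 1 and Control 3 were the highest of the 6 arrays, including 1455956_x_at and 1416122_at. Fitted differences of the 7 ran from -1.38 to 0.00002, and the groups overlapped in every one.

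Counted after these values were seen, Control 1 and Control 3 were the highest arrays in 11 of the 26 probe sets, and in 7.27% of all probe sets. Probe sets of 1 gene share their transcript and are not independent. Monocyte and macrophage marker genes also differed among the Control arrays. The 15 measured monocyte and macrophage genes summed to 4018 to 4555 in Runx1-KO-labelled arrays. The sums were 9394, 6184 and 8949 in Control 1, 2 and 3, with 10 to 13 of the 15 above background on each array. Their median log2 difference was -0.99, with 13 genes below 0, 2 above and 0 past the adjusted threshold. At an unadjusted limma p under 0.05 there were 10 (11.5% of all genes). The groups did not overlap in 9, all lower in Runx1-KO-labelled arrays (11.7% of all genes). The scavenger receptor gene Cd163 stood at 248 to 261 in Runx1-KO-labelled arrays and at 1098, 268 and 1237 in Control 1, 2 and 3. The genes of lowest p in the list, Adgre1, Mpeg1 and Ms4a6c, placed Control 2 well above Runx1-KO-labelled arrays. Adgre1 read 66.3, 57.9 and 73.0 in Runx1-KO-labelled arrays and 167, 205 and 131 in Control (limma adjusted p = 0.205). Mpeg1 read 1165, 1046 and 1190 against 2426, 2078 and 2251 (0.226). Ms4a6c read 506, 273 and 409 against 839, 775 and 954 (0.266). C1qa, which encodes a complement protein of tissue macrophages, was below background on every array. C1qb was above background on every array. It read 57.8, 50.7 and 24.7 in Runx1-KO-labelled arrays and 185, 80.1 and 154 in Control (limma adjusted p = 0.303). C1qc overlapped between the groups, with 26.6, 13.0 and 24.6 in Runx1-KO-labelled arrays and 25.0, 21.4 and 21.8 in Control. Control 1 and Control 3 were thus the highest arrays for the marker sum and Cd163 as they were for Ccnd1 and Ccnd2. For Adgre1 the highest array was Control 2. Which cells gave these marker values was not tested, nor was the part of those cells in the cyclin values. In bulk RNA fewer cells of a type and less RNA per cell cannot be told apart. As background, Ccnd1 is known to be induced in mouse macrophages by the growth factor CSF1. The CSF1 receptor gene Csf1r read 844, 978 and 915 in Runx1-KO-labelled arrays and 1982, 1359.8 and 1723 in Control 1, 2 and 3. Its log2 difference was -0.87 ± 0.23 (limma adjusted p = 0.284). Control 2 stood well above Runx1-KO-labelled arrays on Csf1r. On Ccnd1 1448698_at Control 2 read 93.4, next to 64.8 to 88.5 in Runx1-KO-labelled arrays. The part of CSF1 in the Ccnd1 values was not tested.

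Among 11145 other genes whose mean lay above background, the 3 with the highest Pearson r to Ccnd1 1448698_at over the 6 arrays were Sh3pxd2a (0.989), the chemokine gene Ccl9 (0.985) and Larp4b (0.984), given as a description. Sh3pxd2a read 15.9, 14.7 and 12.5 in Runx1-KO-labelled arrays, each below the background limit of its array (17.0, 19.6 and 18.6). In Control it read 99.6, 20.9 and 80.9. An r over 0.9 was reached by 88 genes, and since Control 1 and Control 3 stand apart on Ccnd1, r rests largely on those arrays. Ccl9 read 1073, 1165 and 1000.4 in Runx1-KO-labelled arrays and 1957, 1211 and 1680.2 in Control, which placed the 6 arrays in the same order as Ccnd1 (Spearman rho 1).

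Ccnd3 is the gene of cyclin D3. Its brightest probe set (1415907_at) read 420.0, 809 and 623 in Runx1-KO-labelled arrays and 792, 549 and 626 in Control 1, 2 and 3. The groups overlapped fully, with Runx1-KO 1 the lowest and Runx1-KO 2 the highest array. The log2 difference was -0.12 ± 0.31 (95% interval -0.86 to 0.62, adjusted p = 0.912), and 0.13 without Runx1-KO 1. On 1438805_at the values were 94.1, 64.8 and 58.6 in Runx1-KO-labelled arrays and 131, 34.6 and 115 in Control, again highest in Control 1 and Control 3 and lowest in Control 2 (-0.18 ± 0.54, adjusted p = 0.926). The remaining probe set, 1444323_at, was below background on every array. Set against Ccnd3 within each array, the log2 ratio of Ccnd1 1448698_at to Ccnd3 1415907_at was -3.05 ± 0.32 in Runx1-KO-labelled arrays and -1.34 ± 1.06 in Control (SD, n = 3 each; exact permutation p = 0.1). The same ratio for Ccnd2 was -1.58 ± 0.28 in Runx1-KO-labelled arrays and -1.05 ± 1.004 in Control (exact permutation p = 0.5). Over the 6 within-array ratios computed for these genes no p could fall below 0.1, so none would pass an adjustment.

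Cdk6, the kinase on which MLL-rearranged leukemias are known to depend, had narrow spreads within both groups. On 1455287_at it read 1778, 2018 and 2199 in Runx1-KO-labelled arrays and 2283, 2749 and 2523 in Control. Every Runx1-KO-labelled array lay below every Control array, and the log2 difference was -0.33 ± 0.21 (1.26-fold lower, 95% interval -0.83 to 0.16, adjusted p = 0.581, exact permutation p = 0.1). On 1460291_at the values were 1349, 1581 and 1624 in Runx1-KO-labelled arrays and 1751, 1928 and 1898 in Control (-0.30 ± 0.20, adjusted p = 0.614), also without overlap. The third probe set, 1435338_at, read 1979, 1827 and 1949.8 in Runx1-KO-labelled arrays and 1899, 2207 and 2072 in Control, where the groups overlapped (-0.10 ± 0.19, adjusted p = 0.878). The widest of the 3 Cdk6 intervals ran down to -0.83 and up to 0.16.

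Cdk4, the other D cyclin kinase, was measured by 3 probe sets that agreed on sign. The brightest, 1422441_x_at, read 331, 317 and 447 in Runx1-KO-labelled arrays and 354, 559.9 and 498 in Control 1, 2 and 3. Control 1 lay within the other group and Control 2 was the highest array (-0.36 ± 0.27, adjusted p = 0.656). On 1422440_at the values were 214, 246 and 306 in Runx1-KO-labelled arrays and 257, 357 and 360.4 in Control (-0.34 ± 0.25, adjusted p = 0.646). For 1422439_a_at the log2 difference was -0.22 ± 0.29 (adjusted p = 0.808). The log2 ratio of Cdk6 1455287_at to Cdk4 1422441_x_at within an array was 2.46 ± 0.19 in Runx1-KO-labelled arrays and 2.44 ± 0.22 in Control (SD, n = 3 each; exact permutation p = 0.9), so no shift between the kinases was detectable with 3 arrays a group.

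RefSeq promoter windows, from 250 bases before to 50 after a gene's start in build GRCm38.p6, were given for 8 of the 10 genes (12 windows), not for Ccnd1 or Ccnd2. They are shown for both kinases and for 1 start of Ccnd3. Cdk6 was chosen because its groups did not overlap on 2 of its 3 probe sets. Lower values without overlap in Runx1-KO-labelled arrays were seen in 10.6% of all probe sets. Cdk4 and Ccnd3 were chosen as the genes whose windows hold the letters that RUNX proteins are known to bind. Capitals mark TGTGGT or TGCGGT (the RUNX core, on either strand) and CACGTG (the E box bound by MYC and its partners). The windows are on the plus strand at chr5:3343643-3343942 for Cdk6, chr10:127063285-127063584 for Cdk4 and chr17:47504801-47505100 for Ccnd3.
Cdk6: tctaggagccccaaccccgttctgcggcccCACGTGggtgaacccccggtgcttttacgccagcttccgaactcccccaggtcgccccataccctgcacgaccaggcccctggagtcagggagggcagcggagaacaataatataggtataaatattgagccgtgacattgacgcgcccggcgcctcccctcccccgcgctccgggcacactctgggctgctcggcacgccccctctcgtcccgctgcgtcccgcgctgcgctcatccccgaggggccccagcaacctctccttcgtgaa
Cdk4: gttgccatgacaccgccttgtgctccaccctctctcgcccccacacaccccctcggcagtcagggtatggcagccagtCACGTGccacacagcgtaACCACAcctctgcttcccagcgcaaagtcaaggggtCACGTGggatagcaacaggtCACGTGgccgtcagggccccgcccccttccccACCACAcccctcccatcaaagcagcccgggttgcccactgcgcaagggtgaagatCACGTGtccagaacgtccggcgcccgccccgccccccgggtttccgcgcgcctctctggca
Ccnd3: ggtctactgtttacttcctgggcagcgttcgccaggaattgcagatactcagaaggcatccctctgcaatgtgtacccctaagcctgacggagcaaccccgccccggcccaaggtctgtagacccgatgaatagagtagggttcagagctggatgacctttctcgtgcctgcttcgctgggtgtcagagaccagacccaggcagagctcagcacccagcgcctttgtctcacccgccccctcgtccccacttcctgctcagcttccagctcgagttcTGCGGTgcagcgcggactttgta

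TGTGGT was found in 1 of the 12 windows, that of Cdk4 with 2 matches, and in 16.7% of all 32544 promoter windows. TGCGGT was found in 1, the Ccnd3 window shown, and in 6.46% of all. CACGTG occurred in 3, with 4 matches in Cdk4 and 1 each in Cdk6 and in 1 window of Cdkn2c, against 7.17% of all. The GC box GGGCGG occurred in 9 of the 12 (35.9% of all) and the E2F-like TTTNNCGC in 3, which are the Cdk6 window and both Cdkn2a windows (5.20% of all). A match describes letters only, both strands were searched, and no marked match of the 3 printed windows lies on another.

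Cdkn1a encodes p21, the CIP/KIP inhibitor that p53 is known to induce. Its brightest probe set (1424638_at) read 410.0, 1253 and 799 in Runx1-KO-labelled arrays and 1257, 704 and 1071 in Control. Runx1-KO 1 was the lowest array and Runx1-KO 2 lay at the level of Control 1, so the groups overlapped. The log2 difference was -0.40 ± 0.46 (adjusted p = 0.777), and it turned to 0.03 without Runx1-KO 1. On 1421679_a_at the values were 100.2, 512 and 231 in Runx1-KO-labelled arrays and 307, 211 and 452 in Control (-0.44 ± 0.62, adjusted p = 0.825), or 0.16 without Runx1-KO 1.

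Cdkn1b encodes p27, which holds CDK2 inactive in resting cells. The probe set 1434045_at read 648, 517 and 613 in Runx1-KO-labelled arrays and 598, 498 and 499 in Control (0.16 ± 0.21, adjusted p = 0.816), with Runx1-KO 1 the highest array. The probe set 1419497_at read 146, 379 and 297 in Runx1-KO-labelled arrays and 381, 290.3 and 348 in Control (-0.41 ± 0.38, adjusted p = 0.726), with Runx1-KO 1 the lowest. The within-array log2 ratio of 1419497_at to 1434045_at was -2.15 in Runx1-KO 1 and -1.04 to -0.45 in the other 5 arrays. Runx1-KO 1 is the array with the Gapdh ratio of 7.10 and an Actb ratio of 1.11, and the part of RNA degradation in its Cdkn1b and Cdkn1a values was not tested. Without that array the log2 difference of 1419497_at was -0.0091.

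The INK4 genes were represented by 1 probe set each. Cdkn2a, which gives rise to both p16INK4a and p19ARF from separate first exons, read 9.96, 14.4 and 12.8 in Runx1-KO-labelled arrays and 16.4, 8.62 and 15.99 in Control. All 6 values lay below the background limits of their arrays (17.0, 19.6 and 18.6, and 17.0, 14.1 and 22.5, in the same order), so no fold can be stated. Cdkn2c, the gene of p18INK4c, read 496, 358 and 516 in Runx1-KO-labelled arrays and 545, 389 and 499 in Control. The groups overlapped closely (-0.07 ± 0.25, 95% interval -0.68 to 0.54, adjusted p = 0.941). Cdkn2d, the gene of p19INK4d, read 43.6, 79.3 and 91.0 in Runx1-KO-labelled arrays and 90.2, 78.4 and 117 in Control (-0.47 ± 0.34, adjusted p = 0.647). Its lowest array was Runx1-KO 1, without which the log2 difference was -0.15. Of the 7 inhibitor probe sets, 4 were lowest in Runx1-KO 1, as were 21.1% of all probe sets.

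The remaining CDK inhibitor genes were not uniform. Cdkn1c, which encodes the imprinted CIP/KIP inhibitor p57, read 209, 274 and 207 in Runx1-KO-labelled arrays and 122, 43.6 and 91.0 in Control. All Runx1-KO-labelled arrays lay above all Control arrays, and the log2 difference was 1.54 ± 0.41 (2.90-fold higher, unadjusted p = 0.00808, adjusted p = 0.291). Cdkn2b, the INK4 gene beside Cdkn2a, gave -0.28 ± 0.35 on the log2 scale (adjusted p = 0.798) with values of 47.3 to 101.0 in Runx1-KO-labelled arrays and 61.4 to 87.6 in Control.

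Downstream of the D cyclin kinases, 0 of 13 RB, E2F and DP genes passed in either direction, against 0.0605% of all 18193 genes by their brightest probe set, and 3 had an unadjusted p under 0.05, against 11.5% of all genes. Their median log2 difference was -0.40 (-0.01 over all genes), or -0.08 without Control 1 and -0.19 without Runx1-KO 2. For 4 of the 13 no overlap was seen between the groups, all lower in Runx1-KO-labelled arrays, where 11.7% of all genes were of that kind. E2f6, a repressive E2F, read 126, 77.5 and 83.7 in Runx1-KO-labelled arrays and 233, 211 and 236 in Control (-1.27 ± 0.25, unadjusted p = 0.00199, adjusted p = 0.226). Its other probe set went the other way (0.49 ± 0.27, adjusted p = 0.549), so the gene has no settled direction. Rbl2, the pocket protein p130 of resting cells, read 248, 151 and 210.1 in Runx1-KO-labelled arrays and 313, 299 and 335 in Control (-0.67 ± 0.25, adjusted p = 0.406), and its other probe set was also lower without overlap (-0.56 ± 0.25, adjusted p = 0.465). E2f5, a repressive E2F partnered with pocket proteins, had a log2 difference of -0.84 ± 0.27 (adjusted p = 0.354), with 2 of 3 Runx1-KO-labelled arrays above background.

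Of 10 genes for the E and A cyclins, CDK2, CDK1 and their activators, 0 passed, 2 had an unadjusted p under 0.05 (11.5% of all genes), and the median log2 difference was -0.03, or 0.10 without Runx1-KO 2. Ccna2, the S phase cyclin A2, read 724, 515 and 801 in Runx1-KO-labelled arrays and 1222, 957 and 1060.3 in Control (-0.69 ± 0.25, adjusted p = 0.398). Cdk1, the mitotic kinase, read 286, 382 and 551 in Runx1-KO-labelled arrays and 742, 697 and 600.2 in Control (-0.79 ± 0.29, adjusted p = 0.401). On these probe sets the groups did not overlap, the 2 of the 10 genes on the lower side (11.7% of all genes). The other Ccna2 probe set did overlap (530.2, 306 and 579 in Runx1-KO-labelled arrays and 675, 554 and 618 in Control; -0.43 ± 0.30, adjusted p = 0.625). Ccna1 was below background on every array.

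Of the 19 measured E2F target genes of S phase entry, 0 passed, 1 had an unadjusted p under 0.05 (11.5% of all genes), 15 had a fitted difference below 0 and 4 above, and the median was -0.27. That median was -0.06 without Runx1-KO 2. The groups did not overlap in 6 on the lower side (11.7% of all genes) and in 1 on the higher side (9.17% of all genes). Gins1, part of the replicative helicase, read 365, 195 and 335 in Runx1-KO-labelled arrays and 466, 466 and 502 in Control (-0.73 ± 0.29, adjusted p = 0.422). Runx1-KO 2 was its lowest array. The log2 difference was -0.46 ± 0.22 for its partner gene Gins2 (adjusted p = 0.494), and for Cdc45, another helicase gene, it was -0.51 ± 0.25 (adjusted p = 0.505).

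Ubiquitin ligase parts that remove D cyclins and CDK inhibitors were measured by 12 genes, of which 0 passed and 0 had an unadjusted p under 0.05, with a median log2 difference of -0.06 (0.0098 without Runx1-KO 2). In 3 of the 12 every Runx1-KO-labelled array lay above every Control array, where 9.17% of all genes did so. Fbxo4, an F-box protein known to act on cyclin D1, read 93.0, 215 and 84.9 in Runx1-KO-labelled arrays and 82.2, 47.3 and 74.8 in Control (0.85 ± 0.43, adjusted p = 0.508). Fbxw7, the F-box protein for cyclin E and MYC, read 256, 691 and 253 in Runx1-KO-labelled arrays and 203, 220.3 and 232 in Control (0.70 ± 0.42, adjusted p = 0.575), led by Runx1-KO 2. Dtl, the substrate receptor through which p21 is removed in S phase, read 437, 462 and 593 in Runx1-KO-labelled arrays and 309, 416 and 383 in Control (0.43 ± 0.24, adjusted p = 0.542).

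The 13 measured mature neutrophil genes summed to 20219, 18658 and 17582 in Runx1-KO-labelled arrays and to 14238, 9321 and 11117 in Control 1, 2 and 3, with all 13 above background on each Runx1-KO-labelled array and 12 or 13 on each Control array. S100a8 and S100a9 made up most of each sum, with log2 differences of 0.50 and 0.52 (limma adjusted p = 0.516 and 0.451). The median log2 difference of the 13 was 1.25, with 0 past the adjusted threshold, 7 at an unadjusted p under 0.05 (11.5% of all genes) and 9 without overlap on the higher side (9.17% of all genes). Maturing neutrophils are known to leave the cell cycle, and the part of maturation in the cyclin, kinase and inhibitor values was not tested. Summed T and NK cell genes ran from 429 to 799 in Runx1-KO-labelled arrays and from 543 to 651 in Control. Of these 12 genes 1 was higher without overlap (9.17% of all genes) and 6 were lower without overlap (11.7% of all genes). Those 6 were below background in every Runx1-KO-labelled array, and 1 of them, Ncr1, was below it on every array. The median log2 difference was -0.87. It ran from -1.06 to -0.51 with 1 array left out and from -1.06 to 0.30 over all 19 alternatives, so its sign was not stable. The sum was carried mostly by Cd247 (283 to 656 in Runx1-KO-labelled arrays and 367 to 404 in Control). The T cell receptor genes Cd3e and Cd3g were below background in every Runx1-KO-labelled array and above it in 2 of 3 Control arrays. Summed B cell genes ran from 379 to 623 and from 390.2 to 539, and summed megakaryocyte and platelet genes from 829.6 to 1315 and from 492 to 741, in the same order of groups.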

How the data were processed

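Gene expression was measured on a 1-colour Affymetrix mouse array, from total RNA converted to biotin-labelled cDNA, per the labels' protocols. The authors deposited 1 linear intensity per probe set and array. The array medians were alike, and 1 value lay below 1. The authors' background, scaling and summary methods are not given in the sources used here. The table has 45101 probe sets, of which 64 controls were left out. Of the other 45037, 34945 had 1 symbol in the platform annotation, 932 had several and 9160 had none.

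Intensities were taken to log2 and all 45037 probe sets were fitted with limma 3.58.1 (lmFit, eBayes) in R 4.3.3, without covariates or a filter, by two-sided tests with Benjamini-Hochberg adjustment over all of them at 0.05. Errors of log2 differences are moderated standard errors. For lists, each of 18193 genes was taken by the probe set with the highest mean. Single values were tested by exact permutation of the 6 arrays. The fit was tested on simulated data. No list was tested as a set. The number of arrays limits the precision.

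Named were all members, Runx1, and the 3 genes of highest r with the member of lowest p. Of each pathway list, the genes past the threshold or otherwise the 3 of lowest p were named. Marker genes, Csf1r, Eif2s3y, Xist and the promoter windows shown were chosen after values were seen. Members and lists were chosen with earlier results of these data known. Of the marker lists, 3 mature neutrophil, 1 monocyte, 4 erythroid, 2 T and NK cell, 1 B cell and 2 megakaryocyte genes had no probe set with 1 symbol. Alternatives were other normalizations, filters, probe set summaries, statistics, thresholds and left-out arrays. Same-numbered arrays of the groups had correlations of deviations of 0.02, -0.15 and 0.10, within the -0.25 to 0.19 of arrays with unlike numbers. No pairing by replicate number was seen, though with 3 such pairs the check is weak.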

Additional observations from a re-analysis of the deposited data

How the results depend on the processing

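Under 19 alternatives, 0 of the 26 probe sets of the D cyclins, kinases and inhibitors passed in each, with a lowest adjusted p of 0.125 (Ccnd1 1417420_at without Control 2). In 17 of the 26 the sign held under each alternative, and 26 of 457 values were reversed, the cause of which was not tested. The 457 include values that could not reverse. Filters, 1 probe set per gene, other statistics, the other threshold and the replicate block leave a fitted difference unchanged. Only other normalizations, array weights, the offset, means per gene and left-out arrays could change a sign. Ccnd2 1455956_x_at, which had no fitted difference, was -0.00204 with quantile normalization, -0.00114 with median centring, -0.35 with array weights and -0.044 with an offset of 16, and -0.60 to 0.37 with 1 array left out. With the mean of all probe sets per gene, Ccnd3 was 0.20 and Cdkn1b -0.13. With both arrays numbered 1 left out, Ccnd3 1415907_at was 0.28, Cdkn1a 1424638_at 0.20 and 1421679_a_at 0.15, Cdkn1b 1419497_at 0.078 and Cdkn2a, below background on every array, a fitted 0.21. Cdkn2c was 0.023 with array weights. With 1 array left out, Ccnd3 1415907_at ran from -0.34 to 0.13, Ccnd3 1438805_at from -0.79 to 0.17, Cdkn1a 1424638_at from -0.78 to 0.026, Cdkn1a 1421679_a_at from -1.02 to 0.16, Cdkn2a from -0.40 to 0.060 and Cdkn2c from -0.21 to 0.10.

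Over all probe sets, 11 were higher in Runx1-KO-labelled arrays and 20 were lower. The counts were 27 and 39 above background on at least 3 arrays, 23 and 36 among the brighter probe sets, 82 and 121 with a variance trend and robust fitting, 29 and 62 with the offset, and 1 and 4 with the ordinary statistic. They were 6 and 10 with 1 probe set per gene. Array weights gave 19 higher, an adjusted p under 0.1 gave 24 higher, and the mean per gene gave 10 lower. Without both arrays numbered 1 they were 0 and 0 in limma (5065 at an unadjusted p under 0.05), and with 1 array left out 1 to 3 and 3 to 6. No pairing of the arrays by replicate number was seen. With the replicate block the counts were 0 and 0 (4464 at an unadjusted p under 0.05), with fewer residual degrees of freedom. In the 5 pathway lists 0 genes passed under each alternative. Of the 13 mature neutrophil genes 3 passed on the higher side with a variance trend and robust fitting, 2 with the offset, and 1 each above background on at least 3 arrays, with the mean per gene and at an adjusted p under 0.1. Of the monocyte and macrophage genes 2 passed on the lower side with a variance trend and robust fitting and 1 with the offset, and 1 megakaryocyte and platelet gene passed on the higher side with the variance trend.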
